A study of Drosophila melanogaster with 2 samples.

Results

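Polycomb repressive complex 1 (PRC1) is assembled in Drosophila from the products of 6 genes, ph-p, ph-d, Psc, Su(z)2, Pc and Sce. They were taken by name, with earlier results of these data known, out of 13968 protein-coding genes on the chromosome arms. Counts for them beside all genes are therefore descriptions. Each gene was given a window of its gene body and 2 kb either side. The data were peaks of chromatin immunoprecipitation and sequencing (ChIP-seq) for the protein encoded by CG16779, fused to eGFP in transgenic flies and recovered with an anti-GFP antibody. The material was whole embryos aged 8 to 24 hours, in 2 biological replicates of a single strain and group, with chromatin sonicated to 200 to 800 bp. There was no second condition, and the control library was not analysed here. The labels name an insertion and do not give the promoter of the fusion. In whole embryos, a strong peak in few cells and a weaker peak in many cannot be told apart.

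PRC1 keeps developmental genes, the Hox genes above all, silent in the cells where they were not switched on early in the embryo. Pc reads methylated histone H3 through its chromodomain, Sce is the RING-finger subunit that places ubiquitin on histone H2A, Psc compacts nucleosome arrays, and Ph proteins join to each other through a SAM domain. Su(z)2 can stand in for its relative Psc, and ph-p and ph-d are a tandem pair of related copies. Polycomb group genes are themselves known to carry Polycomb sites.

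Signal is the value the authors' peak caller gave each peak, on a scale not given in the sources used here, and it is printed as the mean ± SD of 2 replicates (n = 2) unless a replicate is named. The conservative list held 2517 peaks, of which 2516 lay on the arms. They passed an irreproducible discovery rate (IDR, a score of how alike a peak ranks in a pair of peak sets) of 0.01 between replicates, a −log10 IDR of at least 2. Their mean signal ran from 31.4 to 564 with a median of 42.9. The log2 ratio of replicate 2 to replicate 1 over these peaks centred on a median of 0.02, with a spread (SD) of 0.41. Read depth is unknown because the peak lists hold no read counts, so no floor for undetected peaks can be given. Positions are 1-based on dm6, and TSS means an annotated transcription start site.

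Of the 6 genes, 5 held a conservative summit: ph-p with 2, and ph-d, Psc, Su(z)2 and Pc with 1 each, while Sce held none. The same kind of window held a summit at 3332 of 13968 protein-coding genes (23.9%). It did so at 1902 of the 7433 genes (25.6%) whose windows fell in the length range of the 6, from 5599 to 18998 bp. The lower end is the window of Sce. The windows of the 5 genes with a summit ran from 11560 to 18998 bp, and no share was computed for that range. A window with 2 or more summits was found at 777 genes (5.56%), and among the 6 at ph-p. The 6 windows together held 6 summits in 83613 bp, or 7.18 per 100 kb, beside 2.90 per 100 kb over the windows of all protein-coding genes and 1.83 over the arms. The strongest peak of the 6 genes had a median mean signal of 63.6, beside 25.7 over the 13115 protein-coding genes with any ranked peak. Neither that median nor the percentiles given below were matched for window length.

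The sequences below are shown because they lie at the summits that carry the paralogue contrast and the Pc result. They were read on the plus strand from release 6 of the reference genome (RefSeq), 5′ to 3′, and the capital letter marks the summit base. The first covers the strongest ph-p peak, chrX:2137305-2137405, the second the ph-d peak, chrX:2123967-2124067, and the last the peak past the 3′ end of Pc, chr3L:21304583-21304612.
ph-p, first peak: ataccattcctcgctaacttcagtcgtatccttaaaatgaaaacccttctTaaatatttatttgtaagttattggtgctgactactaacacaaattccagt
ph-d: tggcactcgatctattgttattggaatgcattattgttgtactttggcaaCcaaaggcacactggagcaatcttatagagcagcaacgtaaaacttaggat
Pc: taaataaatgatgacAactaacttacaaca

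The next pair compares the second ph-p peak, chrX:2137813-2137842, with the stretch of the ph-d peak that aligns with it, chrX:2124010-2124039. Capitals mark bases that are identical in both, 21 of 30.
ph-p, second peak: TTGagAACCAAgaGtACAgTGGgtCAATtT
ph-d, aligned: TTGgcAACCAAagGcACAcTGGagCAATcT

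The strongest peaks of the 6 genes spanned a 13.7-fold range of mean signal, with ph-p highest, followed by Pc, Psc, Su(z)2, ph-d and Sce. The order was the same in both replicates. The closest neighbours in it were Su(z)2, at 54.5 ± 0.647, and ph-d, at 51.0 ± 1.67. With 2 replicates an exact sign-flip permutation test cannot give a p below 0.5, so no p is given for any difference in signal.

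**Figure D1:**
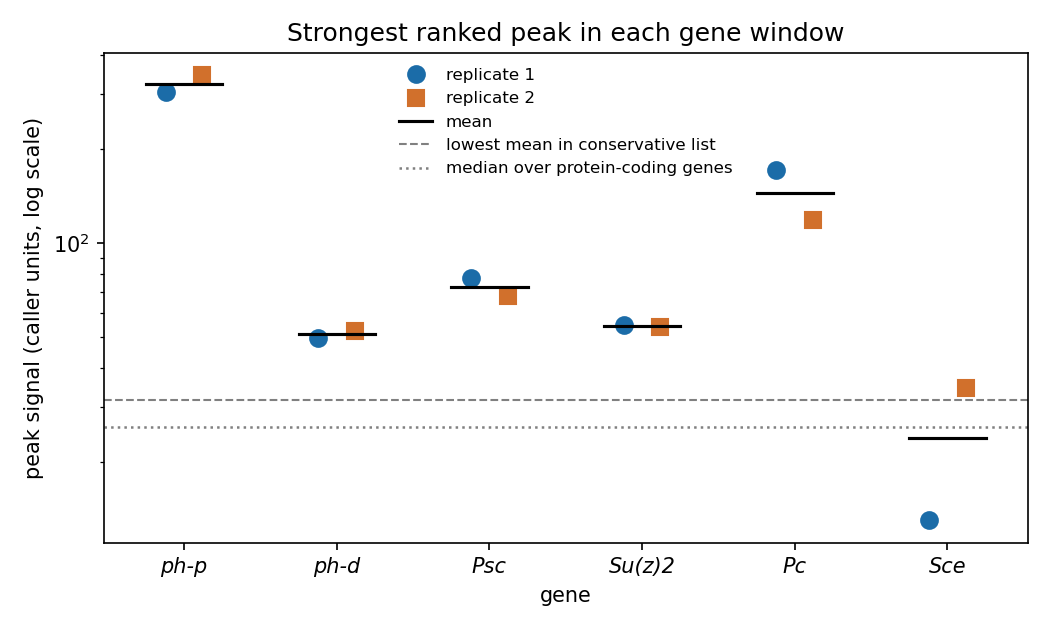
Signal of the strongest ranked peak in the window of each of the 6 genes (log axis, peak caller's units), with a point for each replicate and a line for the mean. The dashed line is the lowest mean in the conservative list, and the dotted line is the median over protein-coding genes. ph-p stands at 304 and 345, Pc at 172 and 118, and Sce at 13.0 and 34.5, with a mean under both lines.

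The ph genes encode the subunits that join to each other. The ph-p gene (FBgn0004861, X, 2126210 to 2138371, minus strand) has 3 annotated TSSs, and both of its peaks lay in its 5′ part. The first peak (X, 2137239 to 2137454, 216 bp) had a signal of 304 in replicate 1 and 345 in replicate 2, a mean of 325 ± 29.0. It ranked 11 of 2516 in the conservative list, and its −log10 IDR was 5, the largest value the list gives. Among the strongest peaks of protein-coding genes it stood at percentile 99.7. Its summit was in an intron, 1016 bp downstream of the first TSS, 500 bp upstream of the second and 733 bp upstream of the last.

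The second ph-p peak (X, 2137779 to 2137912, 134 bp) had a signal of 115 in replicate 1 and 117 in replicate 2, with a −log10 IDR of 4.42 and rank 145. Its summit lay in a 5′ UTR exon, 543 bp downstream of the first TSS and 473 bp from the first summit. The first peak was 2.65-fold higher than the second in replicate 1 and 2.95-fold in replicate 2. Both peaks were narrower than 290 bp, the width of 2313 of the 2516 conservative peaks. The own list of replicate 1 had a further summit at position 2138033, with a signal of 14.6 and 338 bp downstream of the first TSS. The ranked list from both replicates paired it with the replicate 2 peak of signal 117 that it also used for the second peak, at a −log10 IDR of 0.309, so it is not counted among the conservative peaks.

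The ph-d gene (FBgn0004860, X, 2115727 to 2123286, minus strand) lies 2923 bp downstream of ph-p and has 2 annotated TSSs. Its single peak (X, 2123872 to 2124161, 290 bp) was intergenic, 731 bp upstream of the nearest ph-d TSS, in the space between the paralogues. The signal was 49.8 in replicate 1 and 52.2 in replicate 2, a mean of 51.0 ± 1.67, with a −log10 IDR of 3.06, rank 887 and percentile 88.5. The peak fell in the own thresholded list of replicate 2 and not in that of replicate 1. Its summit was 193 bp outside the ph-p window, and the next conservative summit was 13338 bp away.

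**Figure D2:**
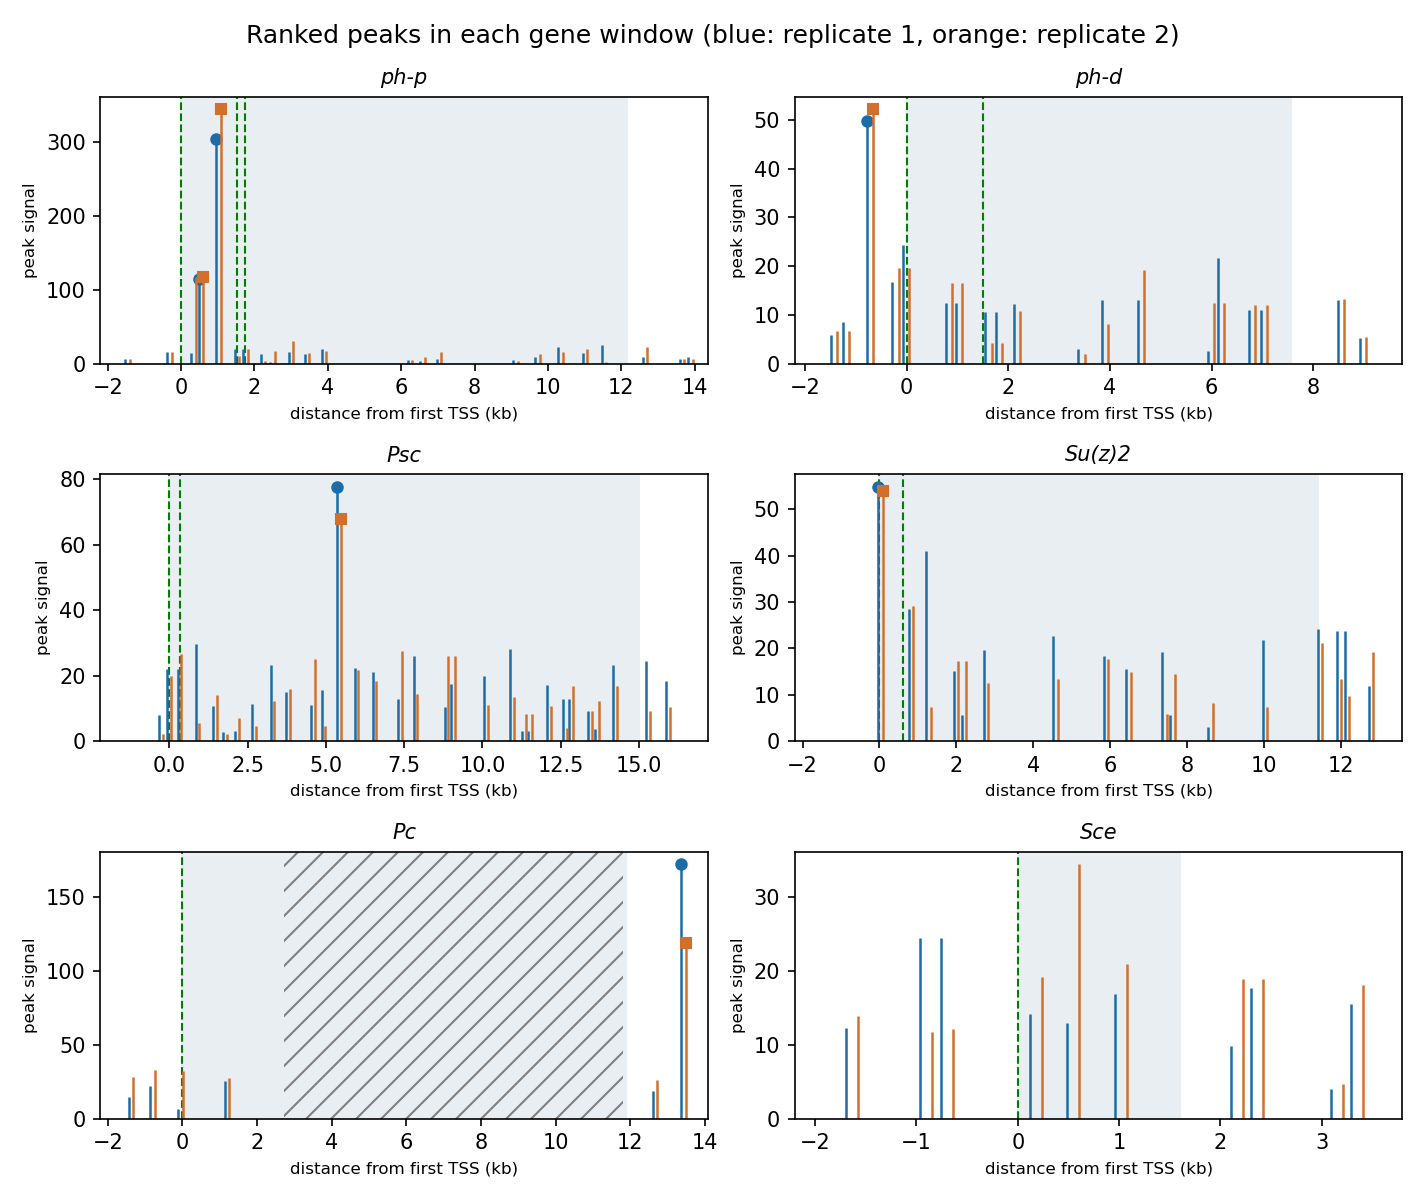
Signal of every ranked peak (vertical lines) in the windows of the 6 genes, against distance from the first TSS in kb in the direction of transcription; blue is replicate 1 and orange replicate 2, drawn slightly to either side of the summit, and circles and squares mark conservative peaks. Shading is the gene body, green dashed lines are TSSs and the hatched box is the roo element in Pc. The ph-p peaks stand at the 5′ end of the gene, and the Pc peak stands past its 3′ end.

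The strongest peaks of the ph paralogues differed by more than the spread between replicates. The strongest ph-p peak was 6.10-fold higher than that of ph-d in replicate 1 and 6.61-fold in replicate 2, a log2 ratio of 2.67 ± 0.08. Within 500 bp of a TSS the strongest ph-d peak was 24.3 and 19.6 and the folds were 12.5 and 17.6, but the first ph-p summit lies exactly at that limit. Within 400 bp, a distance chosen after the values had been seen, the strongest ph-p peak was 14.6 and 117. By these values ph-p was 0.598 times ph-d in replicate 1 and 5.97-fold higher in replicate 2. The replicate 2 signal of 117 is also that of the second ph-p peak. Its summit in the own list of replicate 2 lay 534 bp from the TSS. The near-TSS contrast therefore rests on the distance taken and, within 400 bp, on this shared signal. Summed over all ranked peaks per kb of window, ph-p had 41.6 and 51.6 and ph-d 22.3 and 22.0, folds of 1.86 and 2.34. These sums count a replicate's peak at every ranked peak that uses it. At ph-p this holds for the replicate 2 peak of signal 117, among others. At ph-d it holds for several weaker peaks, such as the 19.6 of replicate 2. Sums with each peak counted once were not computed. At the strongest peak and in the sum, ph-p was higher in both replicates. The gene windows overlap by 1077 bp, where 2 weaker ranked peaks count for both genes.

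Aligning the ph-d peak to the ph-p window placed it on the second ph-p peak, not the first. The alignment joined 278 bp of the ph-d peak (X, 2123872 to 2124149) to 275 bp at ph-p (X, 2137660 to 2137934). It had 196 identical bases, 56 mismatches and 49 gap bases, with 77.8% identity over the aligned pairs. Its score was 91.5, at 1 for each match and with 1, 2 and 0.5 taken off for a mismatch, a gap opened and a gap extended. The base of ph-p aligned with the ph-d summit, 2137820, lay 8 bp from the second ph-p summit. Between these aligned peaks, ph-p was 2.30-fold and 2.24-fold higher than ph-d, a log2 ratio of 1.18 ± 0.03. This comparison of aligned peaks was chosen after the values had been seen.

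The first ph-p peak had no called counterpart at ph-d. Its best alignment in the ph-d window scored 23.5, with 74.3% identity over the aligned pairs, and touched no ph-d peak. At a distance from the ph-d summit close to the spacing of the ph-p summits, 511 bp, ph-d had a ranked peak of 16.8 and 19.6 with a −log10 IDR of 0.648, outside the conservative list. Its replicate 2 signal of 19.6 is also used for the ranked peak 18 bp upstream of the ph-d TSS. None of the 36-base words tested in any of the 6 peaks (99 to 255 words a peak) occurred elsewhere on the arms. Treatment of reads mapping to several places is not given in the sources used here.

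**Figure D3:**
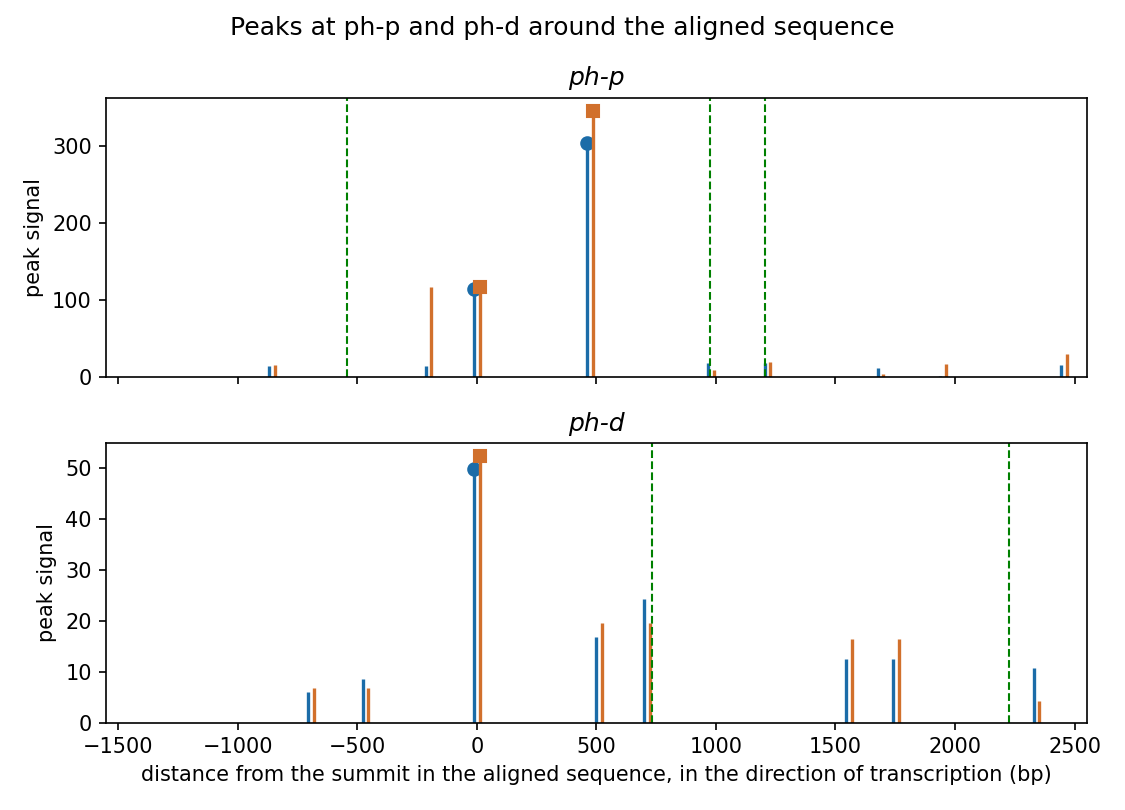
Signal of ranked peaks at ph-p (top) and ph-d (bottom, on its own scale) against distance in bp from the summit in the aligned sequence, in the direction of transcription, with replicate 1 in blue and replicate 2 in orange drawn slightly to either side, markers on conservative peaks and green dashed lines at TSSs. The aligned peaks stand at 115 and 117 for ph-p and 49.8 and 52.2 for ph-d, and the first ph-p peak, at 304 and 345, has a ph-d ranked peak of 16.8 and 19.6 near its place. The 19.6 is drawn again at the ranked peak by the ph-d TSS, which uses the same replicate 2 peak.

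Psc and Su(z)2 are neighbours on arm 2R and encode related proteins. The Psc gene (FBgn0005624, 2R, 12965997 to 12980994, minus strand) had its peak in an intron (2R, 12975421 to 12975710), 5092 bp downstream of its nearest TSS. The signal was 77.6 in replicate 1 and 67.7 in replicate 2, a mean of 72.7 ± 7.03, with a −log10 IDR of 3.64, rank 402 and percentile 94.4. Each replicate's own list held the peak, with summits 47 bp apart. Psc has 2 annotated TSSs. At the second, the nearest ranked peak was 22.0 and 26.5, with its summit 10 bp upstream and a −log10 IDR of 1.17. It was called in the list from pooled reads but not in the conservative list. At the first, the nearest ranked peak was 22.0 and 19.9, with its summit 17 bp upstream and a −log10 IDR of 0.872. Both ranked peaks use the same replicate 1 peak.

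Su(z)2 (FBgn0265623, 2R, 12996501 to 13007911, plus strand) had its peak at its first TSS (2R, 12996389 to 12996678), with the summit in the 5′ UTR, 33 bp downstream. The summit also fell in the window of CG33798. The signal was 54.9 in replicate 1 and 54.0 in replicate 2, a mean of 54.5 ± 0.647, with a −log10 IDR of 3.17, rank 775 and percentile 89.7. Own-list summits of both replicates were 8 bp apart. A ranked peak of 28.6 and 29.3 lay 196 bp downstream of the second TSS, with a −log10 IDR of 1.73.

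The order of Psc and Su(z)2 depended on the place of the peak taken. The strongest Su(z)2 peak was 0.707 times that of Psc in replicate 1 and 0.798 times in replicate 2, a log2 ratio of -0.41 ± 0.12. Within 500 bp of a TSS, Su(z)2 was 2.49-fold and 2.04-fold higher, a log2 ratio of 1.17 ± 0.21. Both orders held in both replicates. Summed per kb of window, Psc had 28.3 and 24.8 and Su(z)2 had 23.0 and 18.4, so Psc was higher by that measure. In both genes the sums count some replicate peaks more than once, at each ranked peak that uses them. The best alignments of the Psc and Su(z)2 peaks in the other gene's window scored 31.5 and 26.0, with 76.1% and 69.3% identity. They overlapped no conservative peak there.

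**Figure D4:**
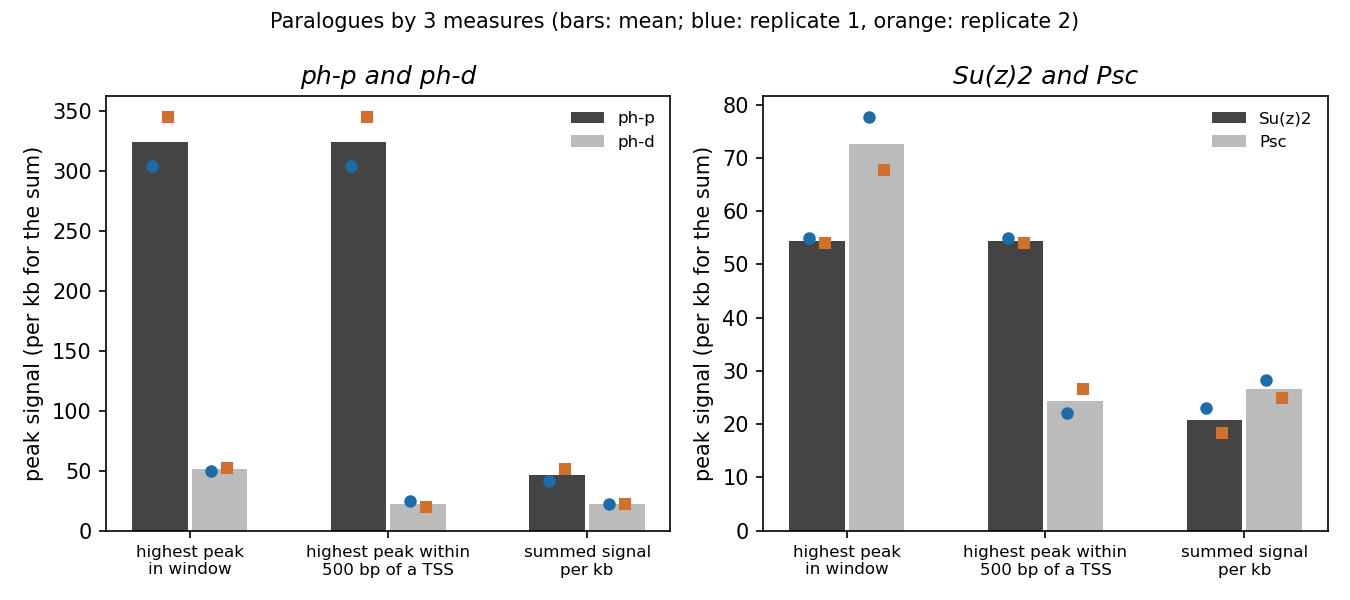
Signal of ph-p and ph-d (left) and of Su(z)2 and Psc (right) by the strongest peak, the strongest peak within 500 bp of a TSS and the summed signal per kb of window, with bars for means and points for replicates (blue 1, orange 2). ph-p is above ph-d in the measures shown, near the TSS through a peak whose summit lies at the 500 bp limit, while Su(z)2 is below Psc at the strongest peak and above it near the TSS.

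The space between Psc and Su(z)2, 15506 bp, also held peaks outside both windows. There were 3 conservative summits there. The strongest, 88.9 and 106 (97.6 ± 12.2), lay 4175 bp upstream of the first Psc TSS and was called in both own lists. The others had means of 40.7 ± 0.824 and 48.0 ± 17.0, and the nearest protein-coding TSS was that of CG33798. The strongest of them was higher than the Psc and Su(z)2 peaks in both replicates.

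Pc (FBgn0003042, 3L, 21306138 to 21318020, minus strand) encodes the chromodomain subunit, and its peak lay past its 3′ end. The peak (3L, 21304453 to 21304742) had its summit 1540 bp past the end of the gene, 13422 bp from the Pc TSS. It had a signal of 172 in replicate 1 and 118 in replicate 2, a mean of 145 ± 37.9, with a −log10 IDR of 4.73, rank 86 and percentile 98.6. The 1.45-fold difference between replicates, a log2 value of -0.54, was larger than that of any other conservative peak in the windows. The summit was in an intron of CG11309, 60 bp inside its TSS and 99 bp upstream of the TSS of CG7632, and the nearest protein-coding TSS was therefore not that of Pc. The summit also lay near the noncoding gene asRNA:CR45952.

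Near its own TSS Pc had only weaker ranked peaks. The one 798 bp upstream had a signal of 21.8 and 32.9, with a −log10 IDR of 1.30, and the one 1192 bp downstream had 25.4 and 27.3, with a −log10 IDR of 1.44. A ranked peak 52 bp upstream had 6.15 in replicate 1 and 32.3 in replicate 2. A roo transposable element (21306203 to 21315303, 9101 bp) makes up 76.6% of the gene, and no ranked peak lay inside it. Pc had 0.378 ranked peaks per kb of window, beside 1.10 to 1.79 for the other genes and a median of 1.38 over protein-coding genes. The part of the element in this number was not tested.

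Sce (FBgn0003330, 3R, 27680431 to 27682029, minus strand) encodes the ubiquitin ligase subunit and had no peak in any thresholded list. Its strongest ranked peak was 13.0 in replicate 1 and 34.5 in replicate 2, a mean of 23.7 ± 15.2, with a −log10 IDR of 0.347, 545 bp inside the TSS. It stood at percentile 40.1 among the strongest peaks of protein-coding genes. With depth unknown, a weaker peak cannot be told apart from none.

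Calls in the own thresholded list of each replicate followed the conservative list except at ph-d. In the list of replicate 1, 4 of the 6 genes held a summit, ph-p, Psc, Su(z)2 and Pc, against 13.3% of protein-coding genes. In that of replicate 2 ph-d joined them, making 5 of 6 against 13.7%. In both lists there were 4 of 6, against 9.89%. Of the 6 summits, the 5 called in both own lists had gaps of 5 to 47 bp between replicates. Over the conservative list, 777 peaks were called in both, with a median gap of 15 bp and a 90th percentile of 46 bp.

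Place relative to the TSS varied among the genes. A conservative summit lay within 500 bp of a TSS at 2 of the 6, ph-p, where the summit is at that limit, and Su(z)2, beside 11.3% of protein-coding genes. When each summit counted only for the protein-coding gene with the nearest TSS, 4 of the 6 kept one, all but Pc and Sce, beside 12.8%.

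**Figure D5:**
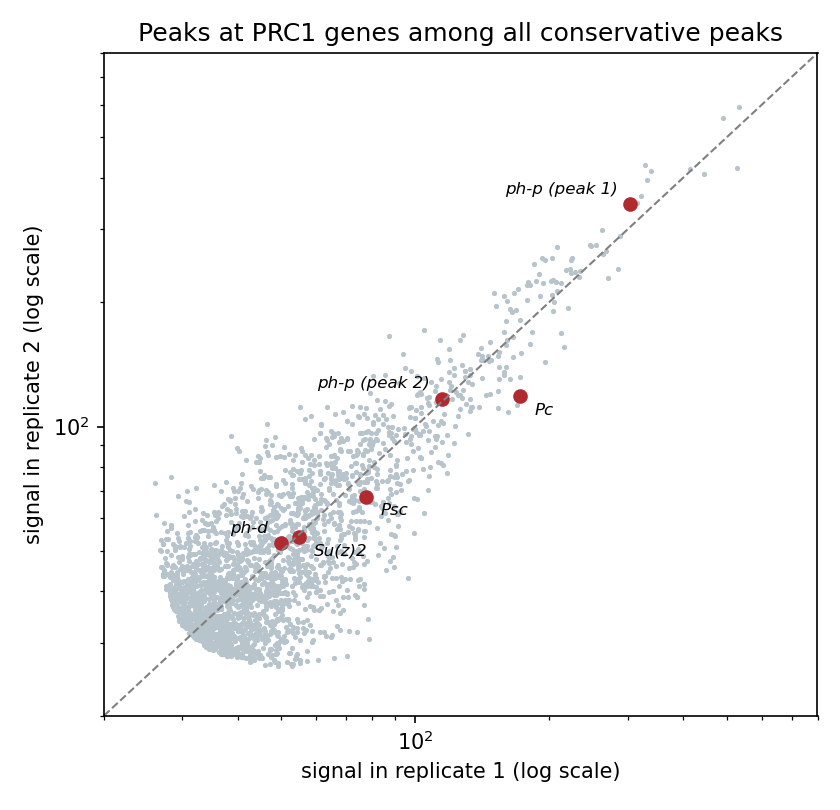
Signal of conservative peaks in replicate 2 against replicate 1 (log axes), with grey points for all 2516 peaks, red points for the 6 peaks in the windows of the PRC1 genes and a dashed line at equal signal. The peaks of ph-p, ph-d, Psc and Su(z)2 lie near that line, and that of Pc lies below it, at 172 and 118.

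The sequence near the summits was searched for motifs of factors linked to Polycomb and promoter sites. These were GAGAG, bound by the GAGA factor, GCCAT, the core of the Pho site, GTGTGT and TATCGATA, on both strands within 50 bp of the summit. None of the 6 summits had any of them. Over all 2516 conservative summits the shares were 15.1%, 18.7%, 7.51% and 1.59%, and 36.9% had at least 1. The GC content of the same windows was 28.7% to 45.5% for the 6 peaks, beside a median of 44.6%, and 5 of the 6 were below it. Absence of these letters says nothing of the factors themselves.

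A list of 22 other genes linked to Polycomb function had conservative summits at 8 (36.4%), beside the 23.9% of all protein-coding genes. It held PRC2 and PhoRC genes, Scm, PR-DUB and variant PRC1 genes, and others, among them Trl, which is classed with the Trithorax group. Without Trl, 7 of 21 had a summit (33.3%). The windows of this list were not matched for length with those of all protein-coding genes. Within 500 bp of a TSS, 4 of the 22 had a summit, beside 11.3% of protein-coding genes. By nearest protein-coding TSS there were also 4 of the 22, beside 12.8%. At 4 of the 8 the strongest peak had its own gene's TSS as the nearest. Trl, which encodes the GAGA factor, had 4 summits, the strongest at 205 and 200, 1533 bp upstream of its TSS. E(z), the histone methyltransferase of PRC2, had a peak of 29.2 and 55.4 10 bp downstream of its TSS. Sfmbt, of PhoRC, had 33.8 and 58.4, 31 bp upstream, and jing had 2 summits, the strongest at 26.8 and 53.2.

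At the other 4, the nearest TSS belonged to a different gene, as at Pc. Caf1-55, a histone chaperone subunit of PRC2, had a peak of 314 and 347, 3950 bp from its TSS and nearest to Art3. phol, which encodes a DNA-binding relative of Pho, had one of 184 and 247, nearest to CG3552. Pcl had 69.2 and 74.6, nearest to pAbp, and l(3)73Ah had 31.8 and 31.2, nearest to tra. The 14 genes without a conservative summit were esc, escl, Su(z)12, Jarid2, pho, Scm, caly, Asx, Kdm2, RYBP, sxc, Spps, cg and corto. pho had no ranked peak at all, and the strongest peaks of the rest had mean signals of 23.3 to 87.0. The highest was at Kdm2, with 91.9 and 82.1 and a −log10 IDR of 3.97, although its 4 ranked peaks that passed this threshold were not in the conservative list.

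Genes whose strongest conservative peak was most like that of each PRC1 gene were chosen among 3317 to 3319 others by the larger of the absolute log2 differences in signal over the 2 replicates. For ph-p they were Art3 and CG34316, which share the peak at Caf1-55, with a difference of 0.05. For ph-d they were CG46339 and Hrb27C, at 0.02 each, and for Psc RpL17 and CG13928, at 0.02 and 0.03. For Su(z)2 they were sty and RpS12, at 0.0047 and 0.02, and for Pc Nup358 and Nup37, which share a peak, at 0.07.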

How the data were processed

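ChIP-seq peaks were taken from 2 biological replicates, on dm6 per the labels. For the aligner, the peak caller and control treatment, the record is: not given in the sources used here. The authors deposited ranked lists and lists thresholded on the IDR, and each signal and −log10 IDR value is the authors' own. The deposited ranked list from both replicates gives the signal of each replicate in unnamed columns. These were assigned by exact matches to each replicate's own ranked list (106023 and 106751 matches on the arms, 0 to the other replicate). Signal was compared only within a list.

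Gene models were those of Ensembl (release 115), and bases were read from the RefSeq release 6 assembly. A peak belonged to a gene when its summit lay in its window. Own-list summits were matched within 100 bp. The 6 genes, the other Polycomb genes, motifs and alternatives were chosen with earlier results of these data known. Named genes were the 6, the other Polycomb list, genes whose windows hold a described summit and the 2 most alike genes per gene. Python 3.11.15, numpy 2.4.6, biopython 1.88 and matplotlib 3.10.9 were used, and counting and alignment were tested on simulated data. Values measure only the spread between samples that the labels call biological replicates, and no p was computed.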

Additional observations from a re-analysis of the deposited data

How the results depend on the processing

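ph-p over ph-d kept its direction under every alternative run except within 400 bp of a TSS. The log2 ratio was 2.61 to 2.72 with 1 replicate left out, 2.77 in the list from pooled reads and 1.06 summed per kb. It was 3.89 within 500 bp of a TSS and also with the window at 500 bp beyond the gene. In choices made after the data were seen, it was 1.18 with the aligned second ph-p peak and 3.89 within 600 bp of a TSS. Within 400 bp, another such choice, it was 0.92 ± 2.35 and replicate 1 reversed. The replicate 2 value there is the signal of 117 that the ranked list also uses for the second ph-p peak. Su(z)2 over Psc kept its direction except near the TSS, where it was 1.17 within 400, 500 and 600 bp. Without a replicate it was -0.50 to -0.33. Genes with a conservative summit, 5 in the main count, fell to 3 at 500 bp beyond the gene and to 2 within 500 bp of a TSS, and summits fell from 6 to 2 there. At 5 kb beyond the gene, genes were 5, summits 8 and other Polycomb genes 11. The share of all protein-coding genes was not computed at 500 bp or 5 kb beyond the gene, or for the 1258 peaks with the highest signal. The counts in those settings therefore have no background beside them. Counts without 1 replicate equal those in the own thresholded list of the other. For replicate 1 and replicate 2 kept, genes were 4 and 5 and other Polycomb genes 5 and 7, against 8 in the conservative list. The own lists are shorter, with 1196 and 1244 peaks on the arms against 2516. Among protein-coding genes 13.3% and 13.7% had a summit in them. The other Polycomb count was 5 in the 1258 peaks with the highest signal, 4 at 500 bp beyond the gene, 4 within 500 bp of a TSS and 4 by nearest TSS. Signals in the pooled list are close to the sum over both replicates and were not compared with the others. Unknown depth limits what can be said of weak peaks.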
